A study of Mus musculus with 21 samples.

Results

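ERK feedback genes are described here in bulk RNA sequencing of 21 mouse mammary tumors. The 10 genes were chosen by symbol as known transcriptional outputs and inhibitors of the receptor kinase to ERK pathway, not by a threshold on their values in these tumors. They are *Dusp4*, *Dusp5*, *Dusp6*, *Spry1*, *Spry2*, *Spry4*, *Spred1*, *Spred2*, *Etv5* and *Errfi1*. All 10 passed the filter on low counts, out of 19315 genes that did so and 38730 with a count in any tumor.

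The control cohort holds 9 tumors from 9 mice that carried FloxNeoNeuNT and MMTV-CreNLST. In 7 of these mice, all but those of N-15 and N-17, a Gata4(loxP/+) allele was also present. The RhoC cohort holds 12 tumors from mice of genotype R26(RhoC/+);FloxNeoNeuNT;MMTV-CreNLST. FloxNeoNeuNT places an activated Neu cDNA at the mouse *Erbb2* locus behind a floxed stop, and R26(RhoC/+) places RhoC and eGFP, joined by an IRES, at Rosa26 behind another. The Cre that opens both is under the mammary MMTV promoter. By the study, this Cre strain appears to act in fewer mammary cells, or more weakly, than other MMTV-Cre strains. All 21 tumors therefore carry the NeuNT allele and Cre, and no group lacks them. Mouse P497 gave 4 of the RhoC tumors (R-13, R-14, R-15 and R-16) and mouse N9255 gave R-6 and R-7, so tumors are not all independent. The labels give no mouse for R-18, and their mouse for R-21 differs from the study's own list, so each was counted as a mouse of its own (8 RhoC mice). Ages, litters and sequencing batches are not in the labels, which leaves no batch to compare within.

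In this pathway a ligand-bound or mutant receptor tyrosine kinase, such as ErbB2, recruits adaptors that load RAS with GTP, and RAS starts the RAF, MEK and ERK kinase cascade. Active ERK induces its own inhibitors at the transcript level. Their RNA is for this reason widely read as a gauge of ERK output in epithelial tumors, although protein and phosphorylation were not measured here. The dual-specificity phosphatases remove phosphate from ERK, the Sprouty and Spred proteins act upstream on adaptors, RAS and RAF, *Etv5* encodes an ETS transcription factor of the PEA3 group, and *Errfi1* (Mig6) encodes an inhibitor that binds the kinase domain of EGFR and ErbB2.

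Promoter sequences are shown for 4 members on which the results below turn. *Dusp6* and *Etv5* were among the closest pairs across mice, *Dusp5* had the widest range of levels, and *Errfi1* had the smallest p between cohorts. Each is a stretch of 300 bases around a transcription start in RefSeq (GRCm38.p6), 5′ to 3′ on the gene's strand. *Dusp6* is from chr10:99262981-99263280 (plus strand), *Etv5* from chr16:22438319-22438618 (minus strand, the second of its starts in the table), *Dusp5* from chr19:53528895-53529194 (plus strand) and *Errfi1* from chr4:150854820-150855119 (plus strand, the second of its starts). Capitals mark TGAATG, the core of the Capicua octamers searched below, on either strand (CATTCA on the other). In *Errfi1* they mark TGACGTCA, the cAMP response element.
Dusp6: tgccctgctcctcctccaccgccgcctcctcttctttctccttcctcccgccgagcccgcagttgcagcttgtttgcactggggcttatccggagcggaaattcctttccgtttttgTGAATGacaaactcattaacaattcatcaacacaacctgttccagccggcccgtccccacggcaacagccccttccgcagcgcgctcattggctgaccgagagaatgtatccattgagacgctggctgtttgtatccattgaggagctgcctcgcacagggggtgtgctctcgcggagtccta
Etv5: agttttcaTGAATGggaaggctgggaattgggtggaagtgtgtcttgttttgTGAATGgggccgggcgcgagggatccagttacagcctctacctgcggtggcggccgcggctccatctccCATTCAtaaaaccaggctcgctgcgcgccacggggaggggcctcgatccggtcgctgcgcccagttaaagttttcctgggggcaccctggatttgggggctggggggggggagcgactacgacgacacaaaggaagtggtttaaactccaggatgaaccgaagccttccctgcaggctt
Dusp5: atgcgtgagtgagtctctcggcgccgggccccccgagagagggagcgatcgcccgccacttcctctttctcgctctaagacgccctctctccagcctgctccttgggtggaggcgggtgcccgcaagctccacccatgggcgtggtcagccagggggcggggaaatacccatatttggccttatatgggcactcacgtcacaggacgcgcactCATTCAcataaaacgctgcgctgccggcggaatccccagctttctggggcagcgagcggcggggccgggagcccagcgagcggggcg
Errfi1: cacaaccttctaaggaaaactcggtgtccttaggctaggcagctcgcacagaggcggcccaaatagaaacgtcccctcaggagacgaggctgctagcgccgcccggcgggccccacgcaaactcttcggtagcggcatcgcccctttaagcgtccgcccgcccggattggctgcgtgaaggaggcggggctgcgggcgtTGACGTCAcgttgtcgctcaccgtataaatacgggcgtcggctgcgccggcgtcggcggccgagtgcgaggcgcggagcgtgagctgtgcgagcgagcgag

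Of the 10 members, 8 had at least 1 promoter in the RefSeq table, 10 promoters in all. *Dusp4* and *Spry4* had none there. Both strands were searched for 2 forms of the Capicua octamer, TGAATGAA and TGAATGGA. The ETS motif CCGGAAGT, the AP-1 motif TGANTCA and TGACGTCA were searched as well. Capicua is a repressor whose hold on *Etv* and *Dusp* genes is released by ERK. Neither octamer was found in any of the 10 promoters, against 2.47% of 32851 promoters of the same length with at least 1 of the 2. The shorter core TGAATG lies inside both octamers searched, and was itself searched after they gave no match. It was found once in *Dusp6*, once in *Dusp5* and 3 times in the second promoter of *Etv5*. It occurs in 12.7% of all promoters. TGACGTCA was found once, in the second promoter of *Errfi1* (1.79% of all promoters), and CCGGAAGT and TGANTCA in none (3.89% and 7.81% of all promoters). These are matches of letters and not binding sites.

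Total counts per tumor were 47552423 to 100741339 in control tumors and 47309780 to 85326903 in RhoC tumors, with medians of 64729272 and 60157351. No member had fewer than 372 reads in any tumor, so the spread between tumors rather than counting error limits the comparisons. The 7 luminal epithelial markers (keratins, *Epcam*, *Cdh1* and claudins) summed to 1232 to 5935 CPM (counts scaled to library size) in the 21 tumors. Basal markers were uneven. Their sum was 17215 CPM in R-6, 12639 in R-13, 5950 in R-14 and 4439 in R-12, and among controls 3026 in N-1, against medians of 434 in RhoC and 179 in control tumors. Squamous markers summed to 1158 CPM in R-6, 613 in N-1, 346 in R-13 and 133 in R-14, against cohort medians of 3.40 (RhoC) and 2.23 (control). R-6, R-13 and R-14 are squamous cell carcinomas by the study's histology. Other lists were uneven too. Skeletal muscle markers summed to 0.588 to 4005 CPM in controls (most in N-17) and 0.458 to 615 CPM in RhoC tumors (most in R-10). Fibroblast markers summed to 250 to 7176 CPM in controls and 1384 to 11288.5 CPM in RhoC tumors. None of 8 marker lists passed a test between cohorts in summed log2 CPM (exact permutation test over tumors, 2-tailed, p from 0.206 to 0.785). Tumors of 1 mouse counted as separate there. Gene by gene, all 7 luminal markers had a negative log2 fold change (median -0.30) and all 6 basal markers a positive one (median 0.997). None of these was called, and 49.6% of all tested genes were positive. In bulk tissue, fewer cells of a type and less RNA per cell cannot be told apart.

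The alleles themselves were read first. *Erbb2* counts, which take in reads of the NeuNT cDNA as far as they align there, were 58 to 2725 CPM in controls (median 1166) and 256 to 1851 CPM in RhoC tumors (median 734). The lowest of all 21 was N-15, at 57.9 CPM, and the next was R-18, at 256 CPM. *Met*, the hepatocyte growth factor receptor, was at 19168 CPM in N-15, at 59.2 to 255 CPM in the other 8 controls and at most 941 CPM in RhoC tumors (R-6). *Rhoc* was 77.7 ± 53.7 CPM (SD, n = 9) in controls and 88.8 ± 33.5 CPM (SD, n = 12) in RhoC tumors. R-2, labelled as a RhoC tumor, had the lowest level of all 21 (22.8 CPM), below every control, and the highest was that of the control N-8 (172 CPM).

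Per transcript length, *Dusp6* was the most abundant member. Its median over the 21 tumors was 200.5 FPKM (fragments scaled by gene length and library size, so that genes can be compared). *Etv5* followed at 71.6 FPKM, *Dusp4* at 61.4, *Errfi1* at 57.2 and *Spred1* at 51.0. *Spry2* (24.9), *Dusp5* (21.5), *Spred2* (20.8), *Spry4* (14.1) and *Spry1* (11.5) were lower. All levels below are CPM after TMM normalization, which serve to compare tumors within a gene.

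**Figure D1:**
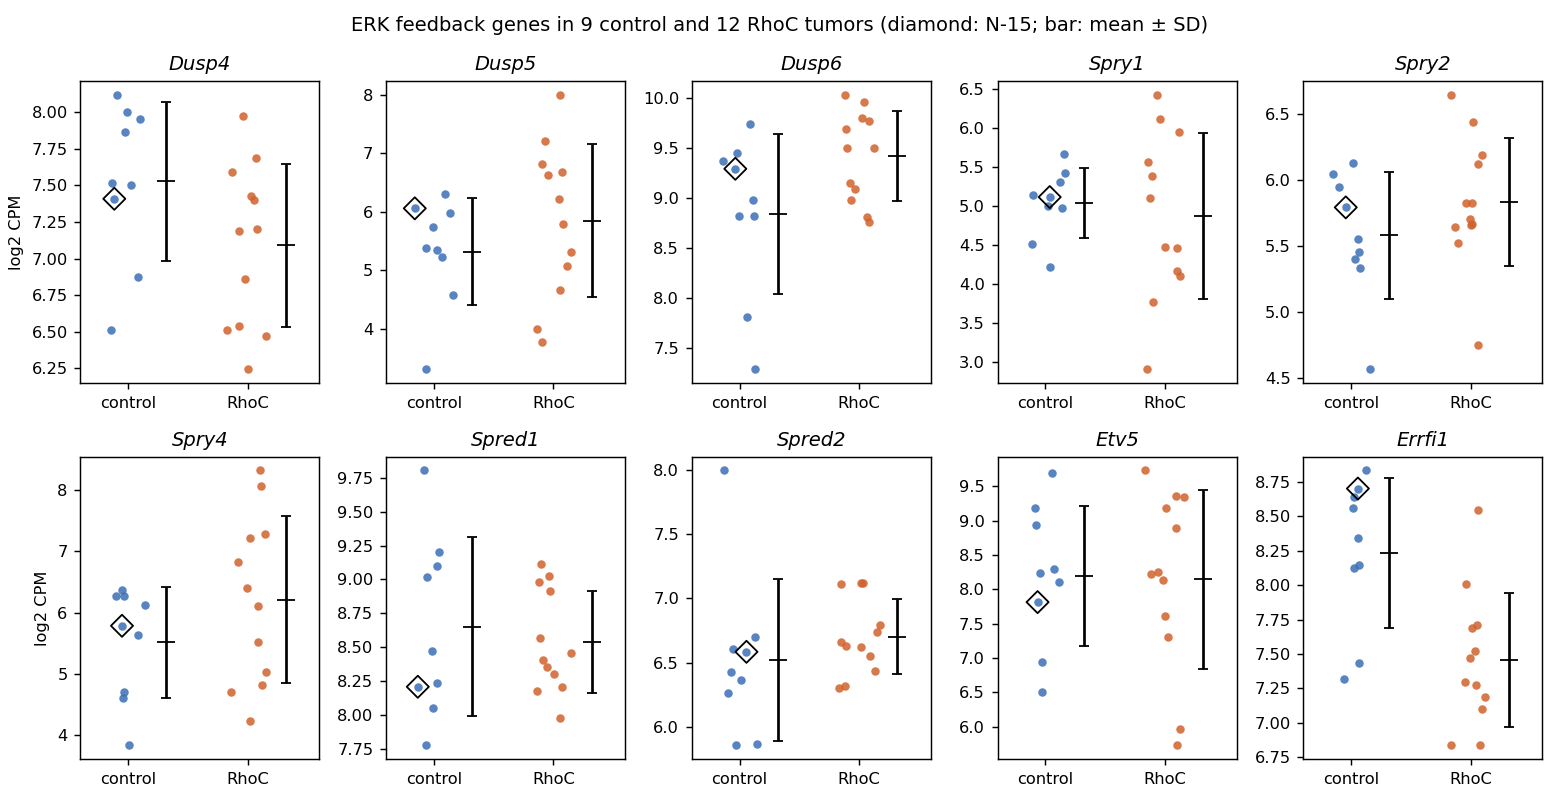
Level of each of the 10 ERK feedback genes (log2 CPM, vertical axes that differ between panels) in 9 control and 12 RhoC tumors, each point a tumor, with the mean ± SD of each cohort at its right and N-15 ringed by a diamond. The cohorts overlap in every panel. *Errfi1* is the member whose RhoC tumors sit lowest against the controls, and N-15 lies among the other controls throughout.

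The members differed widely in how much they varied. *Dusp5* spanned 26.03-fold, from 9.83 CPM in N-3 to 256 CPM in R-6. *Spry4* spanned 22.6-fold, from 14.2 CPM in N-1 to 321 CPM in R-16. *Etv5* spanned 15.997-fold and *Spry1* 11.5-fold, both from R-6 to R-16. The remaining 6 spanned 3.67-fold (*Dusp4*) to 6.73-fold (*Dusp6*). The SD of log2 CPM over the 21 tumors was 1.22 for *Spry4*, 1.16 for both *Dusp5* and *Etv5* and 0.46 for *Spred2*, where the median over tested genes was 0.70.

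The first comparison asks whether these feedback genes differed in transcript level between the RhoC and control cohorts. The cohorts also differ in Gata4 genotype, as 7 of 9 controls and 0 of 12 RhoC tumors carried Gata4(loxP/+). By the study, tumors also came earlier in RhoC mice than in controls. An effect of RhoC cannot be told apart from these here. No member passed the test. With edgeR's quasi-likelihood test and Benjamini-Hochberg adjustment over all tested genes, 0 of 10 members had an adjusted p under 0.05, where 43 genes (0.223% of those tested) did. At an unadjusted p under 0.05 there were 2 of 10, *Errfi1* and *Spry4*, where 20.5% of all tested genes passed. With DESeq2, 1 of 10 was called (*Errfi1*), against 5.71% of its genes. With any 1 tumor left out edgeR called 14 (without N-9) to 346 genes (without N-15), and 0 members each time. The median log2 fold change of the members was 0.10, against -0.01 over all tested genes, with 7 of 10 positive (49.6% of all). It was -0.005 with 5 of 10 positive without R-16 and 0.26 without N-8, and voom with mouse as a random effect also gave 5 of 10 positive.

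Among the ERK phosphatases, *Dusp6*, which acts on cytoplasmic ERK, had the higher mean in RhoC tumors and *Dusp4*, a nuclear phosphatase, the lower. *Dusp6* was at 156 to 856 CPM in controls, with a median of 505, and at 433 to 1049 CPM in RhoC tumors, with a median of 726. In 4 RhoC tumors it exceeded every control, and 8 of 9 controls lay below the RhoC median. Its log2 fold change was 0.48 (SE 0.26 and adjusted p = 0.300 by edgeR). *Dusp4* was at 91.3 to 278 CPM in controls (median 183) and 75.7 to 251 CPM in RhoC tumors (median 147). Its log2 fold change was -0.42 (SE 0.23 and adjusted p = 0.302 by edgeR). The ranges of controls and RhoC tumors overlapped for both genes.

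*Dusp5*, a nuclear ERK phosphatase, was at 9.83 to 78.6 CPM in controls (median 41.4) and 13.6 to 256 CPM in RhoC tumors (median 65.1). Its log2 fold change of 0.82 (SE 0.46 and adjusted p = 0.318 by edgeR) was smaller without R-6 and R-13, which had the most basal marker RNA. These held the highest RhoC values, 256 CPM in R-6 and 148 CPM in R-13, while R-14, also rich in basal markers, had 55.4 CPM and its removal alone gave 0.86. Without R-6 alone it was 0.51, and with R-13 and R-14 left out as well it was 0.32 (SE 0.43 and adjusted p = 0.742 by edgeR). With mouse taken into account it was 0.42 (SE 0.46) for counts summed per mouse and 0.35 (SE 0.51) for voom with mouse as a random effect. The part of squamous or basal cells in this level was not tested.

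The Sprouty genes encode inducible adaptors that damp RAS activation. *Spry4* had the largest difference of the 10 members. It was at 14.2 to 82.8 CPM in controls (median 55.0) and at 18.6 to 321 CPM in RhoC tumors (median 76.7). In 6 RhoC tumors it exceeded every control, most in R-16 (321 CPM) and R-18 (269 CPM), while R-6, R-2, R-14 and R-13 (18.6 to 32.6 CPM) were near the low end of the controls. The log2 fold change was 1.05 (SE 0.49, p = 0.0445, adjusted p = 0.233 by edgeR). Without R-16 it was 0.77, and without the squamous cell carcinomas 1.37 (adjusted p = 0.181 by edgeR). With tumor counts summed within mice it was 1.07 (SE 0.41, p = 0.0180, adjusted p = 0.312 by edgeR), and with voom and mouse as a random effect 0.74 (SE 0.57, p = 0.202, limma).

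*Spry2* and *Spry1* differed little between cohorts. *Spry2* was at 50.1 ± 14.7 CPM (SD, n = 9) in controls and 59.9 ± 19.6 CPM (SD, n = 12) in RhoC tumors, a log2 fold change of 0.26 (SE 0.21 and adjusted p = 0.483 by edgeR) that was 0.17 without N-1 and 0.17 without R-21. *Spry1* was at 34.1 ± 9.71 CPM (SD, n = 9) in controls and 36.6 ± 24.8 CPM (SD, n = 12) in RhoC tumors. The RhoC tumors lay on both sides of the controls, 3 above all of them and 4 below all of them. Those 4 were R-6 (7.46 CPM), R-13 (13.6), R-14 (17.1) and R-1. The log2 fold change of *Spry1* was 0.10 (SE 0.35 and adjusted p = 0.887 by edgeR) and turned to -0.08 without R-16 and -0.02 without R-7.

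The Spred proteins bring neurofibromin to the membrane and inactivate RAS. *Spred1* was at 219 to 893 CPM in controls (median 355) and 253 to 553 CPM in RhoC tumors (median 345), a log2 fold change of -0.20 (SE 0.23 and adjusted p = 0.628 by edgeR). The value of 893 CPM was that of N-4, without which the log2 fold change was -0.01. *Spred2* was at 57.9 to 255 CPM in controls (median 86.1) and at 79.0 to 139 CPM in RhoC tumors (median 99.9). The value of 255 CPM was that of N-8, and the next control had 104 CPM (N-17). The log2 fold change of *Spred2* was 0.06 (SE 0.22 and adjusted p = 0.892 by edgeR) with all tumors and 0.36 (adjusted p = 0.179) without N-8, and it was -0.01 without N-7 and -0.02 without N-9.

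*Etv5* had nearly the same median in both cohorts, 301 CPM in controls and 302 CPM in RhoC tumors, within ranges of 90.9 to 825 CPM and 53.1 to 850 CPM. R-6 (53.1 CPM), R-13 (62.5), N-1 (90.9), N-7 (123) and R-14 (159) were the 5 lowest. The log2 fold change was 0.09 (SE 0.46 and adjusted p = 0.928 by edgeR) and took either sign when single tumors were left out, from -0.08 (without R-16) to 0.35 (without N-6). A processed copy of the gene, *Gm4798*, matches the *Etv5* transcript over 1700 bases with 98.6% identity, so reads can be uncertain between them. *Gm4798* itself was at 0.02 to 1.86 CPM, a median of 0.225% of the reads on the pair.

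*Errfi1* had the smallest p of the 10 members. It was at 159 to 456 CPM in controls (median 325) and 114 to 374 CPM in RhoC tumors (median 167). Of the 12 RhoC tumors, 11 lay below the control median and 6 below every control. R-1 (374 CPM) was the exception among RhoC tumors, and N-17 (159 CPM) and N-1 (173 CPM) were low among controls. The log2 fold change was -0.78 (SE 0.22, p = 0.00198, adjusted p = 0.0886 by edgeR). DESeq2 gave -0.77 (SE 0.24 and adjusted p = 0.0306). After tumor counts were summed within mice, edgeR gave -0.78 (SE 0.26 and adjusted p = 0.267). *Errfi1*, *Dusp5*, *Spry1* and *Spry4* overlap annotated genes on the opposite strand, and whether the authors counted by strand is not given in the sources used here.

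**Figure D2:**
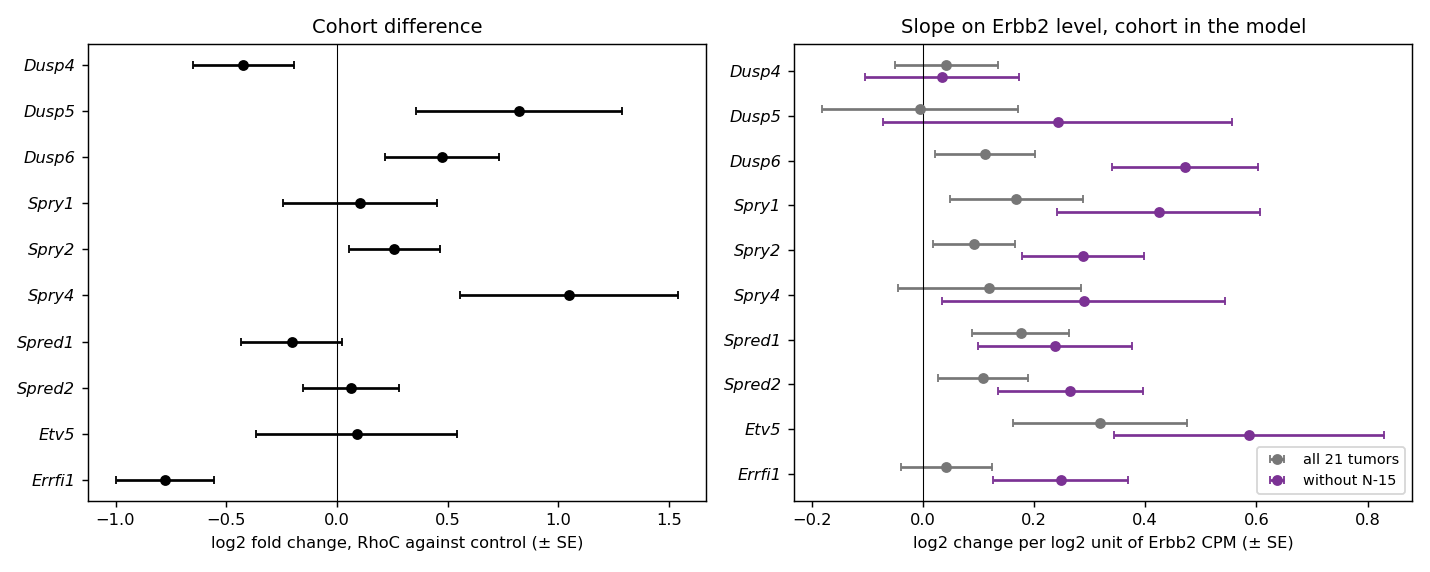
Left, log2 fold change between RhoC and control tumors for each member, as points with SE bars. Right, log2 change of each member per log2 unit of *Erbb2* CPM with cohort in the model, for all 21 tumors (grey) and without N-15 (purple), with SE bars. *Spry4* (1.05) and *Errfi1* (-0.78) stand farthest from 0 on the left. On the right, 9 slopes lie farther from 0 without N-15, and that of *Dusp4* is 0.04 with it and 0.03 without it.

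Tumors of the same mouse show how much these genes vary when genotype and host are shared. In N9255, *Etv5* was 53.1 CPM in R-6 and 585 CPM in R-7, an 11.01-fold difference, *Spry1* differed 9.27-fold and *Spry4* 8.41-fold in the same direction, and *Dusp5* differed 6.47-fold in the opposite direction. Over the 4 tumors of P497, *Etv5* spanned 13.6-fold (R-13 to R-16), *Spry4* 11.5-fold (R-14 to R-16) and *Spry1* 6.31-fold (R-13 to R-16). *Dusp6* spanned 1.83-fold and *Spred2* 1.14-fold over the same 4. For *Etv5*, *Spry1* and *Spry4* the lowest tumor of each mouse was R-6, R-13 or R-14, which had high basal marker sums, while *Dusp5* was highest in R-6 and R-13 but lowest of its mouse in R-14 (55.4 CPM), where *Dusp6* was highest. The part of tissue makeup in these differences was not tested.

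The second comparison asks whether the feedback genes follow the level of *Erbb2*, the oncogene shared by all tumors. With all 21 tumors, none passed the test. In a fit with cohort and *Erbb2* log2 CPM, 0 of 10 members were called by edgeR's quasi-likelihood test, where 17 genes were called (0.088% of 19314), and 0 of 10 had an unadjusted p under 0.05 (8.4% of all). DESeq2 also called 0 of 10 (1.22% of its genes), with 1 of 10 at an unadjusted p under 0.05, where 12% of its genes were. Slopes, as log2 change per log2 unit of *Erbb2*, were positive for 9 of 10 members, where 46.6% of all tested genes had a positive slope. The largest were those of *Etv5*, 0.32 (SE 0.16, p = 0.0541, adjusted p = 0.597), and *Spred1*, 0.18 (SE 0.09, p = 0.0558, adjusted p = 0.597). The median of the members was 0.11, against -0.01 over all tested genes.

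The slopes depended on N-15, the tumor with the least *Erbb2*. Without it, 10 of 10 slopes were positive, with a median of 0.28, and 4 of 10 had an unadjusted p under 0.05, where 13.6% of all genes did. No gene of any kind was called then by edgeR, and 2656 genes had an unadjusted p under 0.05. *Dusp6* went from 0.11 (SE 0.09) to 0.47 (SE 0.13, p = 0.00189, adjusted p = 0.114). *Etv5* reached 0.59 (SE 0.24 and adjusted p = 0.290), *Spry1* 0.42 (SE 0.18 and adjusted p = 0.309) and *Spry2* 0.29 (SE 0.11 and adjusted p = 0.236). *Dusp4* stayed at 0.03 (SE 0.14). In the 8 controls other than N-15, taken alone, the slopes were 0.96 for *Spry4*, 0.89 for *Etv5*, 0.78 for *Dusp6*, 0.74 for *Spred2* and 0.49 for *Spry1*, each with an unadjusted p under 0.05 (5 of 10 members, and 9.59% of all genes in that fit) and none called. In the 12 RhoC tumors alone, *Dusp6* had a slope of 0.33 (SE 0.13, p = 0.0226, adjusted p = 0.385 by edgeR), and it was the only member of 10 with an unadjusted p under 0.05 (8.94% of all genes in that fit). These fits within a cohort were chosen after seeing the data.

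**Figure D3:**
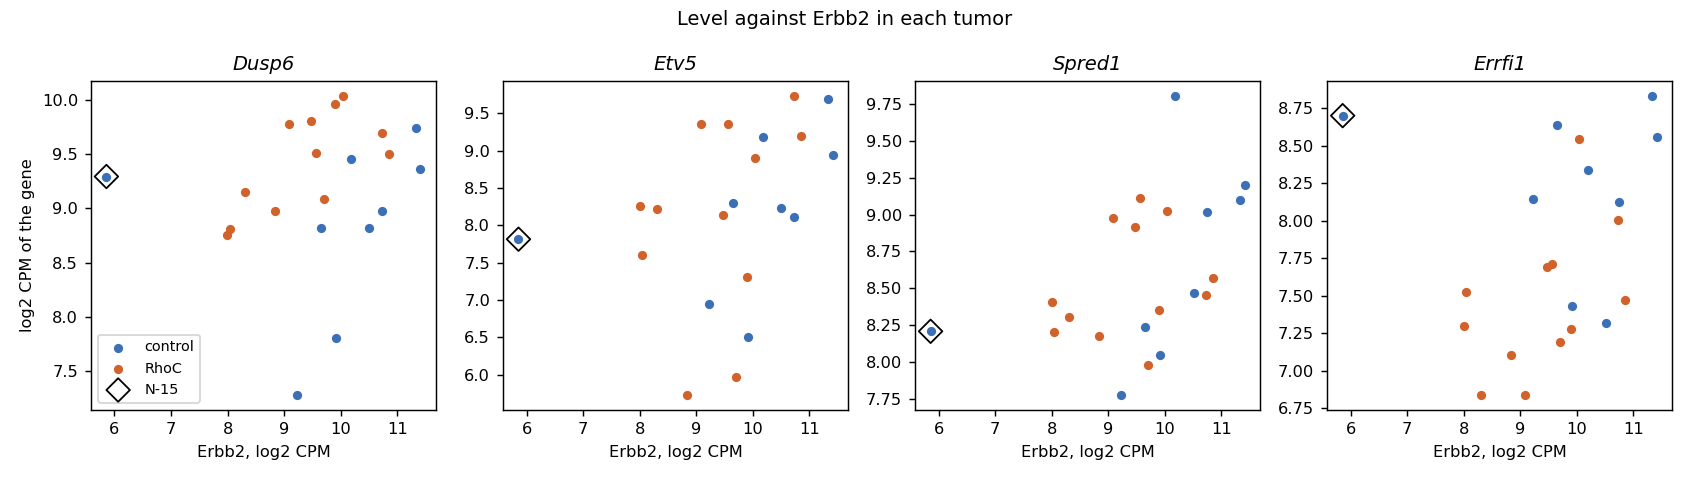
Log2 CPM of *Dusp6*, *Etv5*, *Spred1* and *Errfi1* (vertical) against log2 CPM of *Erbb2* (horizontal) in each control (blue) and RhoC (orange) tumor. N-15, ringed, stands alone at the left with *Erbb2* at 57.9 CPM, with *Dusp6* at 627 CPM (the 11th of 21), *Etv5* at 225 (the 15th), *Spred1* at 296 (the 16th) and *Errfi1* at 416 CPM (the second).

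The slopes of the 2 cohorts were compared by an interaction term. No gene was called by edgeR (1661 genes, 8.6%, at an unadjusted p under 0.05), and 0 of 10 members had an unadjusted p under 0.05. The difference (RhoC minus control) was positive for 7 of 10 members, with a median of 0.22, and without N-15 for 2 of 10, with a median of -0.26. Without N-15, 1 member of 10 had such a p, against 5.23% of all genes. The slope of *Spred2* was lower in RhoC than in control tumors by a difference of -0.73 (SE 0.22, p = 0.00403, adjusted p = 0.924). N-8, with 255 CPM of *Spred2* and the highest *Erbb2* of all tumors (2725 CPM), is among those controls, and with N-8 left out of the fit over all tumors the slope of *Spred2* was -0.0005, against 0.11 with it.

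Correlations with *Erbb2* were also taken over mice. Over 17 mouse means, *Spred1* followed *Erbb2* most closely, with Pearson's r of 0.51 (permutation p = 0.0269) and Spearman's rho of 0.67 (permutation p = 0.00356). It was 0.52 without the 2 mice farthest from the median of *Erbb2* (N-15 and R-18), 0.51 in the 9 control mice and 0.54 in the 8 RhoC mice, though 0.27 in these without R-18 and R-2. For the other 9 members r was -0.07 to 0.34, with permutation p of at least 0.190. *Errfi1* had r of 0.21 with N-15 and 0.62 without it (permutation p = 0.0102), a value over both cohorts. Within the control mice it was -0.17 (0.18 without N-15 and N-8), and within the RhoC mice 0.50 (exact permutation p = 0.186). All p-values of these 10 relations are 2-tailed and not adjusted.

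Within the 8 RhoC mice, *Dusp5* had r of 0.89 (exact permutation p = 0.0125, rho 0.76, exact permutation p = 0.0368) and *Dusp6* r of 0.79 (exact permutation p = 0.0298, rho 0.81, exact permutation p = 0.0218). Without the 2 mice farthest in *Erbb2* (R-18 and R-2) these were 0.97 and 0.48, so that of *Dusp6* rests on them. In the 9 control mice r was -0.28 for *Dusp5* and 0.15 for *Dusp6*, and without N-15 and N-8, the farthest there, -0.17 and 0.79. In these means R-6 and R-7 enter as 1 mouse, although *Dusp5* was 256 CPM at an *Erbb2* of 457 CPM in R-6 and 39.6 CPM at an *Erbb2* of 1851 CPM in R-7. Over the 12 RhoC tumors taken singly, the slope of *Dusp5* was 0.38 (SE 0.45 and adjusted p = 0.963 by edgeR).

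Tumor N-15 has little *Erbb2* RNA and very high *Met* RNA, another receptor kinase that feeds the same cascade. It was picked for these levels, so its values are given without a test. On the log2 scale its difference from the median of the other 8 controls was -4.49 in *Erbb2* and 6.86 in *Met*. Each of the 10 members lay inside the range of the other 8 controls, where 30.1% of all tested genes lay outside it. Of all tested genes, 5.5% were highest and 4.72% lowest in N-15 among the 21 tumors, and no member was either.

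Individually, *Errfi1* was 416 CPM in N-15, the second highest of 21 tumors after N-6 (456 CPM), and 0.46 above the median of the other controls on the log2 scale, where their SD was 0.55. *Dusp5* (66.6 CPM) was 0.70 above it and *Dusp6* (627 CPM, the 11th of 21) 0.39 above it. *Spred1* (296 CPM) differed by -0.54, *Etv5* (225 CPM) by -0.45 and *Dusp4* (170 CPM) by -0.28. *Spry1*, *Spry2*, *Spry4* and *Spred2* were within 0.29 of that median. All of these distances were smaller than the SD of the other 8 controls for the gene in question. *Dusp6* was thus mid-ranked in the tumor with the least *Erbb2* RNA.

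**Figure D4:**
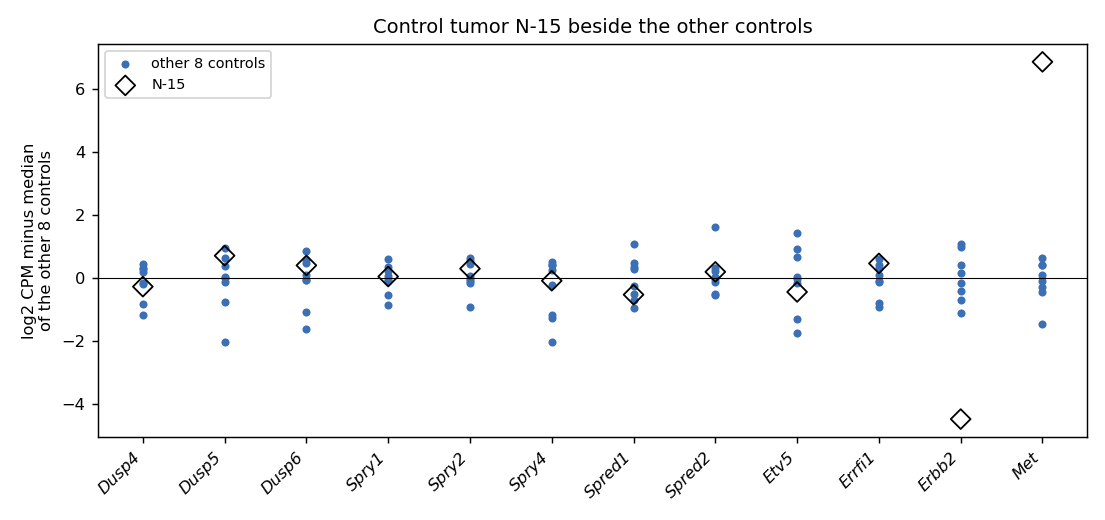
Log2 CPM of each member, *Erbb2* and *Met* in the 9 control tumors, shown as the difference from the median of the 8 controls other than N-15 (vertical axis). N-15 (diamonds) falls among the other controls (blue) for the 10 members, and lies at -4.49 for *Erbb2* and 6.86 for *Met*.

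The members were also set against each other over the 17 mouse means. Of 45 pairs, 35 (77.8%) had r above 0 and 12 (26.7%) had r above 0.5, where of all pairs of a member with a tested gene 48.5% were above 0 and 4.53% above 0.5. The median r of the 45 pairs was 0.30, against -0.01, and none was under -0.5. The closest were *Spred1* with *Etv5* (r 0.80, rho 0.78), *Dusp6* with *Etv5* (r 0.77, rho 0.58), *Spry2* with *Etv5* (r 0.74, rho 0.66), *Dusp6* with *Spred1* (r 0.70, rho 0.72) and *Dusp6* with *Spry2* (r 0.68, rho 0.75). Their permutation p-values for r, not adjusted, were 0.0001, 0.00052, 0.00086, 0.00072 and 0.00626. Within the control mice r of these 5 pairs was 0.74 to 0.89, and within the RhoC mice 0.61 to 0.89. Without the 2 mice farthest from the median of the first gene, r was 0.55 to 0.80.

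*Spry4* was also above 0.5 with *Spry2* (r 0.59), *Etv5* (0.57) and *Dusp6* (0.50), and so were *Spry2* with *Spred1* (0.54) and *Spred2* with *Dusp6* (0.52). Without the 2 mice farthest from the median of the first gene, r of *Spry2* with *Spry4* was 0.26 and that of *Dusp6* with *Spry4* 0.04, so these 2 relations rest on such mice. *Dusp4* was closest to *Errfi1* (r 0.66, rho 0.62, permutation p = 0.00532 for r) and near 0 or below with *Dusp6* (0.09), *Spry2* (-0.14) and *Spry4* (-0.23). *Spry1* was closest to *Spred2* (r 0.60, rho 0.50), a pair at 0.19 over the 21 single tumors, where *Spry1* with *Etv5* was at 0.74 (0.39 over mice). *Dusp5* had r of 0.48 with *Spry2* and -0.28 with *Spry1*. These points share the mice and the scaling of each library, so they are not independent between pairs.

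**Figure D5:**
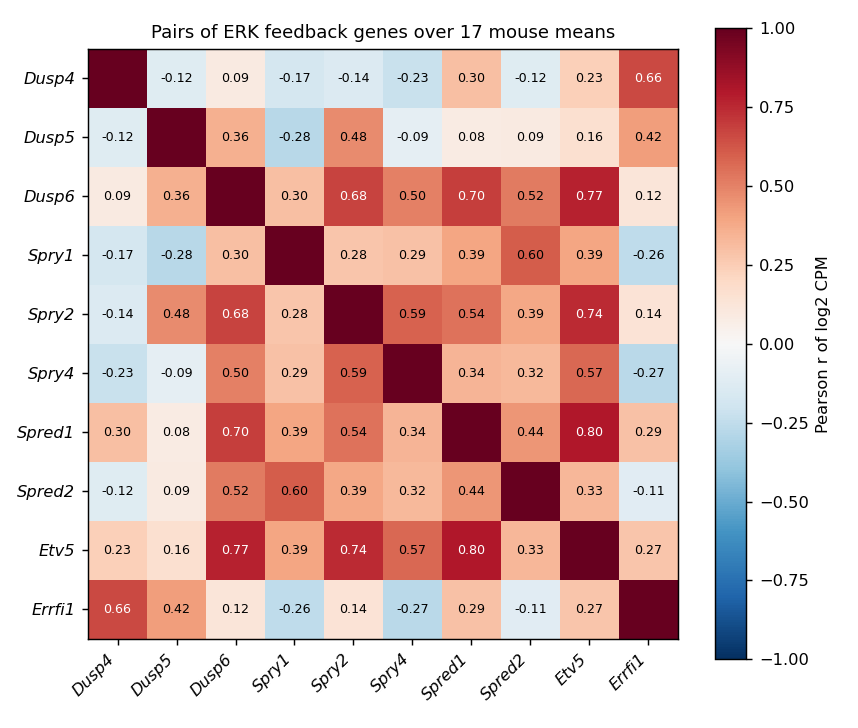
Pearson's r of log2 CPM between each pair of the 10 members over 17 mouse means (9 control, 8 RhoC), as colors from -1 to 1 with the values printed. The pairs of *Dusp6*, *Spry2*, *Spred1* and *Etv5* range from 0.54 to 0.80, *Spry4* reaches 0.59 with *Spry2*, and *Dusp4* is above 0.5 only with *Errfi1* (0.66).

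Ranked among 19314 genes, *Spred1* was 23rd by likeness to *Etv5*, *Dusp6* 46th and *Spry2* 67th. For *Dusp6*, *Etv5* was 34th. For *Spry2*, *Etv5* was 32nd. The genes most like the members over the 17 mice, by r, were *Tspan3*, *Tusc3* and *Fam149a* for *Dusp6* (0.86 to 0.88), *Gm4798*, *Gm34684* and *Tpd52l1* for *Etv5* (0.90 to 0.95), *Mpp5*, *Itm2b* and *Tmed10* for *Spred1* (0.89 to 0.90), and *Tmem53*, *Acadl* and *Txndc12* for *Errfi1* (0.77 to 0.86). *Gm4798* is the processed copy of *Etv5* described above, so its likeness may come from reads uncertain between them, which was not tested. *Fzd6*, *Gm31105* and *Cdk5rap3* were nearest to *Dusp5* (0.81 to 0.89). For the Sprouty genes they were *Cavin3*, *Cygb* and *C6* (*Spry1*, 0.81 to 0.87), *Sptan1*, *Arhgap31* and *Wwc2* (*Spry2*, 0.81 to 0.84) and *Abcg2*, *Arhgap31* and *Ehd3* (*Spry4*, 0.81 to 0.83), and for *Spred2* they were *Pag1*, *Slc23a2* and *Msl1* (0.86 to 0.88).

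Other genes of the pathway were counted beside the members. Of 16 relatives (other dual-specificity phosphatases, *Spry3*, *Spred3*, the other PEA3 factors and regulators of receptor turnover), none was called between cohorts, 2 had an unadjusted p under 0.05 (20.5% of all tested genes did) and 15 had a positive log2 fold change (49.6% of all). *Etv4*, the PEA3 relative of *Etv5*, was at 36.5 ± 18.2 CPM (SD, n = 9) in controls and 76.5 ± 52.7 CPM (SD, n = 12) in RhoC tumors, a log2 fold change of 1.07 (SE 0.33 and adjusted p = 0.104 by edgeR). *Spred3* had a log2 fold change of 1.13 (SE 0.52 and adjusted p = 0.226 by edgeR). On the *Erbb2* slope none of the 16 was called, and 6 were positive and 10 negative (46.6% of all tested genes were positive). *Dusp10*, which acts on JNK and p38, had a negative slope of -0.63 (SE 0.24 and adjusted p = 0.484 by edgeR).

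Of 21 early and ERK responsive genes, none was called between cohorts, 12 had a positive and 9 a negative log2 fold change, and 4 had an unadjusted p under 0.05, a share near the 20.5% of all tested genes. *Ccnd1* (cyclin D1), *Areg*, *Hbegf* and *Fosl1* were these 4, all higher in mean in RhoC tumors. *Ccnd1* was at 512 ± 291 CPM (SD, n = 9) in controls and 1000.1 ± 372 CPM (SD, n = 12) in RhoC tumors, a log2 fold change of 0.97 (SE 0.29 and adjusted p = 0.0993 by edgeR). *Areg* and *Hbegf*, ligands of EGFR, had log2 fold changes of 1.59 (SE 0.66 and adjusted p = 0.185) and 1.45 (SE 0.60 and adjusted p = 0.185 by edgeR). On the *Erbb2* slope, *Ier3* (0.46) and *Egr2* (0.47) had an unadjusted p under 0.05, 2 of 21 where 8.4% of all genes did.

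Of 19 genes of the RAS to ERK core, none was called between cohorts and 6 had an unadjusted p under 0.05 (20.5% of all tested genes did), 4 of them higher in mean in RhoC tumors. *Hras* was at 25.2 ± 5.02 CPM (SD, n = 9) in controls and 50.2 ± 29.8 CPM (SD, n = 12) in RhoC tumors, a log2 fold change of 0.997 (SE 0.27 and adjusted p = 0.0815 by edgeR). *Map2k2* (0.70), *Grb2* (0.61) and *Shc1* (0.49) followed. Of 14 receptor kinases none was called between cohorts. The *Erbb2* slope of *Met* was -1.18 (SE 0.17) with N-15 included. N-15 was picked for its *Met* and *Erbb2* levels, so this slope is given without a test. No other receptor kinase was called on the *Erbb2* slope, and without N-15 no gene was.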

How the data were processed

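Total RNA of 21 mammary tumors was sequenced after ribosomal depletion with a stranded kit. Per the labels and the methods of the study, the authors trimmed reads with Trim Galore 0.5.0, checked them with FastQC 0.11.5, aligned them to GRCm38.p6 with STAR 2.6.0c and counted them with HTSeq 0.6.1p2. The strand setting and annotation release are not given in the sources used here. The authors deposited whole-number counts per gene, without normalization. The deposited tables of their own comparisons also hold log2 fold changes and p-values, which were not used, and FPKM computed by the authors, used here for levels between genes.

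Counts were normalized with TMM in edgeR 4.0.16 (R 4.3.3), filtered with filterByExpr by cohort, and fitted by glmQLFit and glmQLFTest over 19315 genes, with Benjamini-Hochberg adjustment over all of them and a threshold of 0.05. The cohort fit had no covariate, and the slope fit held cohort and *Erbb2* log2 CPM (prior count 2). Correlations used mouse means of log2 CPM with permutation of pairings (SciPy 1.17.1), exact for fewer than 10 mice and otherwise with 100000 resamples, 2-tailed. Alternatives used DESeq2 1.42.0, voom in limma 3.58.1 with mouse as a random effect (correlation within mice 0.27), other filters, scaling and subsets of tumors. The cohort and slope fits were also run on simulated counts. Tumors of 1 mouse were independent in these, so that run does not cover the correlation within mice. Total counts were 47309780 to 100741339 per tumor. The p-values of fits over tumors measure the spread between tumors, and tumors of 1 mouse are counted as separate in them, except with voom. Those over mouse means or counts summed per mouse rest on the spread between mice.

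The members and gene lists were chosen with earlier results of these data known. All members, *Erbb2*, *Met* and *Rhoc* were named, with up to 4 genes of each other list with the smallest p and the 3 genes most like each member, which are not reported here for *Dusp4*. The shared replicate numbers of the cohorts come from different mice and did not pair the tumors.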

Additional observations from a re-analysis of the deposited data

Results flagged for a closer look

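Among the 9 control tumors, 13 genes (the 10 members, *Erbb2*, *Met* and *Rhoc*) were checked for a tumor far from the others, by the gap to its nearest neighbor in log2 CPM as a share of the whole range, against Dixon's critical value for 9 samples. By chance about 1 group in 20 exceeds it. *Spred2* in N-8 had a gap of 0.605 of the range (255 CPM, next 104 CPM). In N-15 the gap was 0.607 for *Erbb2* (57.9 CPM) and 0.748 for *Met* (19168 CPM). N-15 was picked for these levels, so they are a description and the check says nothing of them. The cause was not tested for any of them.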

How the results depend on the processing

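The cohort contrast called 43 genes. It called 1439 with DESeq2, 27 with library size in place of TMM, 3 with counts summed per mouse, 3 with voom, 438 with only the Gata4 loxP controls, 3 without the tumors of P497, 26 without the 3 squamous carcinomas (R-6, R-13, R-14), and 14 (without N-9) to 346 (without N-15) when single tumors were left out. The share of positive calls was 41.9%, but 25.9% with library size, 30.4% with all genes, 54.8% with DESeq2, 0% (of 3 genes) with counts summed per mouse, with voom or without P497, and 7.14% (without N-9) to 56.5% (without R-12) with single tumors left out. Members called stayed at 0 except with DESeq2 (1, *Errfi1*, -0.77). The *Erbb2* slope called 17 genes, 318 with DESeq2, 47 with all genes, 4 with only the Gata4 loxP controls, 0 in RhoC tumors alone, 0 in controls without N-15, and 0 (without N-15) to 24 (without R-10) when single tumors were left out. The slope difference called 3 with all genes in place of 0. None of the settings run called a member on the slope or its difference. The Gata4 loxP controls leave out N-15 and N-17. The cause of these shifts was not tested.

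Some signs turned. In the cohort contrast *Spry1* was -0.13 with voom and -0.083 to 0.20 with single tumors left out, *Etv5* was -0.0040 with voom, -0.017 with only the Gata4 loxP controls, -0.0084 without P497 and -0.082 to 0.35 with single tumors left out, and *Spred2* was -0.017 to 0.36. The slope of *Dusp5* was 0.10 with counts summed per mouse, 0.034 with voom, 0.25 with the Gata4 loxP controls, 0.077 without the 3 squamous carcinomas, 0.38 in RhoC tumors, 0.0015 in controls without N-15 and -0.057 to 0.24 with single tumors left out. That of *Errfi1* was -0.041 in controls alone, and that of *Spred2* -0.00051 to 0.27. Without N-15 the slope difference, positive for these genes with all tumors, became -0.45 for *Dusp6*, -0.10 for *Spry1*, -0.051 for *Spry2*, -0.82 for *Spry4* and -0.43 for *Etv5*. The *Erbb2* correlation of *Spry4* was 0.12 over 21 tumors, and the distance of N-15 in *Errfi1* from all other 20 tumors was 1.10.

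The cohorts share 4 replicate numbers, all from different mice, whose tumors' deviations correlated at -0.24 to 0.02. With a replicate block the cohort contrast called 0 genes and the slope 0, with *Spry1* at -0.41 and *Spred1* at 0.46 in the contrast and *Spred2* at -0.084 in the slope.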
